A study of Homo sapiens with 2 samples.

Results

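The microRNA processing and Argonaute genes are the 10 human genes that carry a microRNA from its primary transcript to the silencing complex: DROSHA, DGCR8, XPO5, DICER1, TARBP2, PRKRA, AGO1, AGO2, AGO3 and AGO4. Members were taken as every probe set of the expression array annotated with exactly 1 gene symbol, that symbol being 1 of the 10. This gave 27 probe sets for 9 of the 10 genes, out of 41091 probe sets with 1 symbol. DGCR8 was left without a value, because each of the 4 probe sets that list it also lists MIR1306, a microRNA gene annotated inside DGCR8 on chromosome 22. The arrays came from PLC8024, a hepatocellular carcinoma (HCC) cell line, whose cells without the surface marker CD133 had been collected by flow cytometry. The cells were then transduced with a lentivirus that carried miR-130b, or with the empty lentiviral vector (EV, used below for that array), and their total RNA was hybridised. One array was made for each condition, so no difference below has a replicate error and none was tested. Every difference is a log2 difference, miR-130b array minus empty vector array. The time after transduction, the promoter of the vector and whether the cells were pools or clones were not given in the sources used here.

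MicroRNAs are transcribed as long primary transcripts that fold into hairpins. In the nucleus the Microprocessor, formed by the endonuclease DROSHA and its RNA-binding partner DGCR8, cuts the hairpin free, and exportin 5 (XPO5) carries it to the cytoplasm. There DICER1, with the RNA-binding partners TARBP2 and PRKRA, removes the loop, and 1 strand is loaded into an Argonaute protein, where its seed pairs with target transcripts. All microRNAs made through this route, an overexpressed one included, use the same enzymes. The comparison asks whether the transcripts of these enzymes differed between cells with added miR-130b and cells with the empty vector.

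The hairpin of MIR130B is shown first, because it is the substrate that the overexpressing cells have to process. It lies on chromosome 22 from 21653304 to 21653385 on the plus strand of GRCh38.p14 and has 82 bases. The capitals mark the 21 bases of the 5p arm and the 22 bases of the 3p arm that remain after cropping and dicing, and the 17 lower-case bases between them form the loop side. Sequences are from RefSeq. The mature 3p strand and 3 further human microRNAs follow with the seed, bases 2 to 8, in capitals, to show which strands share the seed that an Argonaute would present. In the RefSeq table used here, 6 of 2545 mature microRNAs had this seed. Whether that table holds every human microRNA was not checked, so 6 is not the size of the seed family.
MIR130B hairpin: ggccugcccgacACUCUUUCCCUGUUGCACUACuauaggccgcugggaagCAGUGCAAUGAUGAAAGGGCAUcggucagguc
hsa-miR-130b-3p: cAGUGCAAugaugaaagggcau
hsa-miR-301a-3p: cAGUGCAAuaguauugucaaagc
hsa-miR-301b-3p: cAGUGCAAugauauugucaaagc
hsa-miR-454-3p: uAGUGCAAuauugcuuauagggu
The level of mature miR-130b itself was not analysed here.

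The overall median was 4.88 with miR-130b against 4.89 with EV. This likeness was built in, because the processing method named by the submitters (RMA) brings arrays to a shared distribution. A probe set counted as measured when its brighter array reached 4.88, the median of all non-control values, and each of the 13260 measured genes was represented by its brightest measured probe set. Of these genes, 201 had a level with miR-130b that was 2-fold or more lower, and 0 had one that was 2-fold or more higher. The 10 hepatocyte markers with a probe set of their own were all measured, with SERPINA1 at 14.16 with miR-130b against 14.07 with EV. Of these 10, TTR and ALB passed 1.5-fold, with differences of -3.34 and -1.03. CDH5 and VWF, markers of endothelium, and PTPRC, CD3E and CD14, markers of leukocytes, stayed below 4.88 in both arrays, while PECAM1, TEK and LYZ were measured. The brightest probe sets of these 3 had differences from -0.32 to 0.21. A dimmer LYZ probe set had -1.72, but it reached 4.88 only through the EV array and so had to be lower with miR-130b. All 5 fibroblast markers were measured, but THY1, PDGFRB and DCN lay near the 4.88 floor. They stood at 5.42, 5.36 and 5.07 with miR-130b against 5.17, 5.44 and 5.15 with EV. COL1A2 passed 1.5-fold with a difference of -3.08. COL1A1 had -0.08 in its brightest probe set and 0.38 in a dimmer one that reached 4.88 in both arrays. Its other measured probe sets, at -0.88 and -1.68, reached 4.88 only through the EV array and so had to be lower with miR-130b. PROM1, the gene of the sort marker CD133, stood at 6.07 with miR-130b against 9.19 with EV, so its transcript was measured in cells labelled as lacking the protein. For ACTB the signal at the 3′ end over that at the 5′ end was 2.41 with miR-130b against 1.95 with EV. The same ratio for GAPDH was 1.52 with miR-130b against 1.37 with EV. The part of these differences in the results below was not tested.

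None of the 9 member genes reached 1.5-fold in either direction. Among all measured genes, 2.98% passed 1.5-fold, 2.68% as lower and 0.294% as higher in the miR-130b array. The members differed by -0.18 for XPO5 at the lowest to 0.31 for AGO3 at the highest. Their median was 0.03, and the median of all measured genes was also 0.03. The middle 50% of all measured genes lay between -0.09 and 0.14, and 5 of the 9 members lay inside it. The size of the difference, without its sign, had a median of 0.10 over the members and 0.12 over all measured genes. By comparison, TP53INP1, a p53-inducible gene reported as a target of miR-130b, stood at 7.84 with miR-130b against 9.02 with EV in its brightest probe set. A dimmer TP53INP1 probe set differed by -0.07, but it reached 4.88 only through the EV array and so had to be lower with miR-130b.

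**Figure D1:**
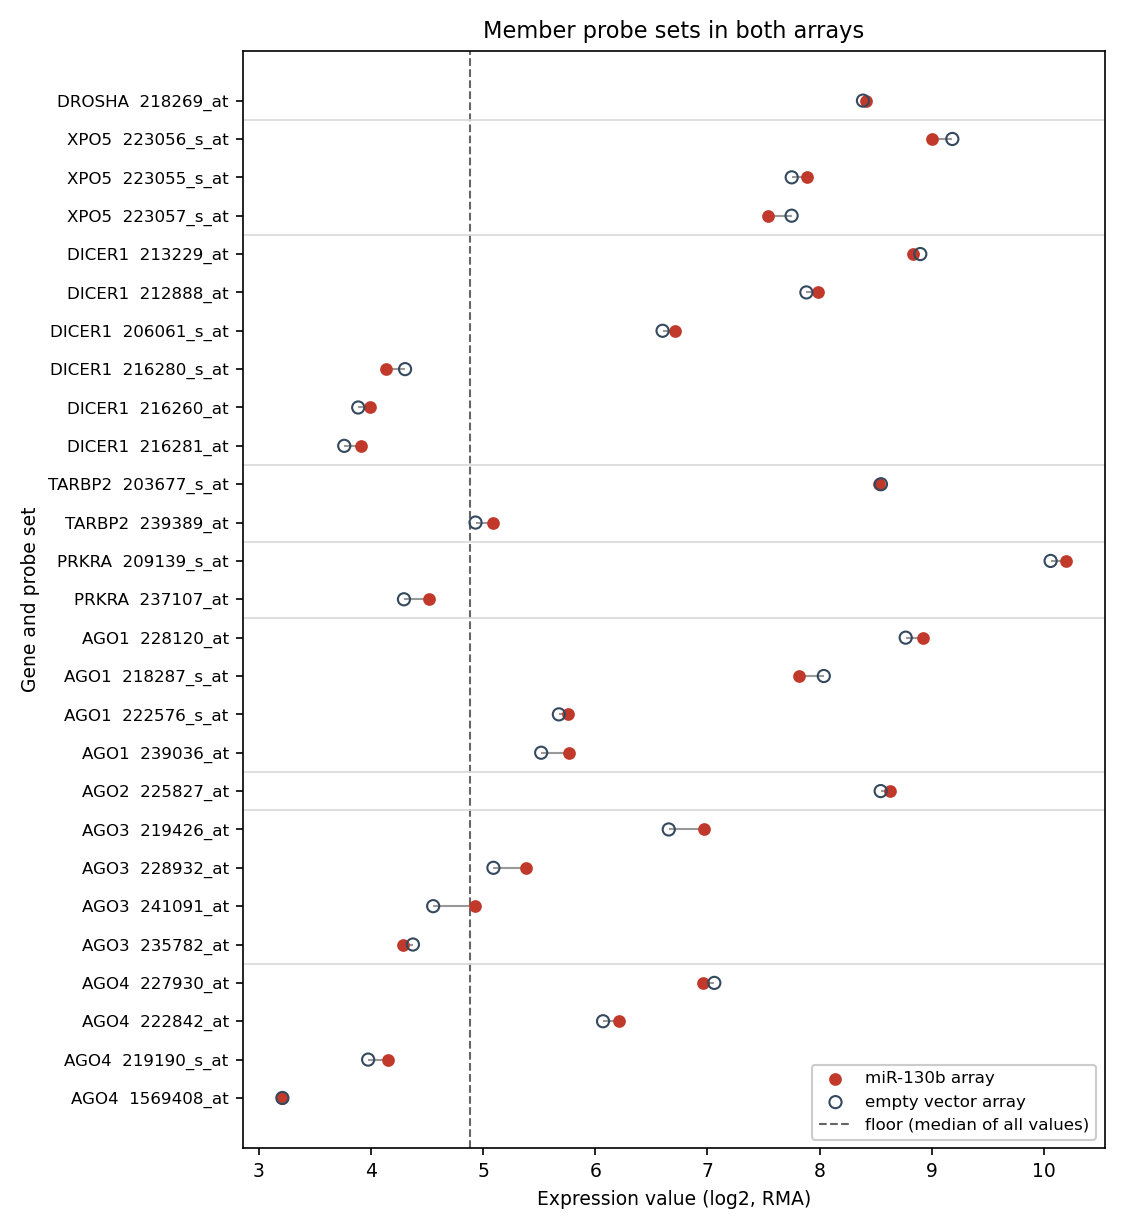
Expression values (log2, horizontal axis) of the 27 member probe sets, 1 row each, in the miR-130b array (filled points) and the empty vector array (open circles), with the 4.88 floor as a dashed line. The pairs of points lie close together in every row, and 20 of the 27 probe sets reach the floor in at least 1 array.

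The technical error of a difference was taken from genes with several probe sets. The pooled standard deviation (SD) of the log2 difference within a gene was 0.20 over the 6047 genes that had 2 or more measured probe sets. Over the 6 members with at least 2 measured probe sets it was 0.15. This SD compares different probe sets on the same 2 arrays. It holds no variation between arrays or cultures and is not the error of a difference. Only AGO3, of the 9 members, differed by more than 0.20 in its brightest probe set, as did 28% of all measured genes. Of the 19 member probe sets at or above the floor in both arrays, 5 did, against 27.8% of all such probe sets, and the 5 belonged to XPO5, AGO1 or AGO3. None of the 20 measured member probe sets passed 1.5-fold, and none of the 7 below the floor did, where 3.16% of all measured probe sets did.

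DROSHA, the nuclear endonuclease that cuts hairpins from primary transcripts, stood at 8.41 with miR-130b against 8.39 with EV. Its only probe set therefore differed by 0.03, less than that SD. DROSHA lies on chromosome 5 from 31400494 to 31532093 (GRCh38.p14, as for all positions here). Across the 7 probe sets that list DGCR8 or AGO2 beside a second gene, which cannot be credited to either gene, differences ran from -0.24 to 0.21.

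XPO5, the exportin that recognises the hairpin precursor, lies on chromosome 6 from 43522334 to 43576038 and had 3 measured probe sets. The brightest stood at 9.003 with miR-130b against 9.18 with EV, a difference of -0.18. The next stood at 7.88 with miR-130b against 7.75 with EV, a difference of 0.13. The dimmest stood at 7.54 with miR-130b against 7.75 with EV, a difference of -0.21. The 3 probe sets of XPO5 thus did not share a direction, and their mean difference was -0.09. Disagreement of this kind was common: 5 of the 6 members with at least 2 measured probe sets had them in both directions, against 47.1% of all such genes. That share was not matched for the number of probe sets per gene, so the 2 figures are not like for like.

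DICER1, the cytoplasmic endonuclease that cuts away the hairpin loop, lies on chromosome 14 from 95086228 to 95158010 and had 6 probe sets, 3 of them measured. The brightest stood at 8.83 with miR-130b against 8.90 with EV, a difference of -0.07. The next stood at 7.99 with miR-130b against 7.88 with EV, and the dimmest measured one at 6.71 with miR-130b against 6.60 with EV. Both of these differed by 0.11. The 3 DICER1 probe sets below the floor had values from 3.91 to 4.14 in the miR-130b array and from 3.76 to 4.30 in the empty vector array, a range in which RMA values keep a residual background. All 6 differences of DICER1 were smaller than 0.20.

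TARBP2, a double-stranded RNA-binding partner of DICER1 on chromosome 12 (53500923 to 53506431), stood at 8.53 with miR-130b against 8.55 with EV. Its dimmer probe set stood at 5.09 with miR-130b against 4.93 with EV. The bright probe set differed by -0.01 and the dim one by 0.16, so the sign depended on the probe set. PRKRA, the other double-stranded RNA-binding partner of DICER1, lies on chromosome 2 from 178431414 to 178451175. It stood at 10.19 with miR-130b against 10.06 with EV, a difference of 0.13. A second PRKRA probe set, below the floor in both arrays, differed by 0.22. No gene of the cropping, export and dicing steps differed by more than 0.18 in its brightest probe set.

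The Argonaute proteins hold the mature strand, and AGO2 is the family member best known for cutting a fully paired target. AGO4, AGO1 and AGO3 lie in a row on chromosome 1 with no other protein-coding gene lying wholly between the outer ends, from 35807636 for the start of AGO4 to 36072500 for the end of AGO3, whereas AGO2 lies on chromosome 8. The annotation leaves 11870 bases between AGO4 and AGO1 and 185 bases between AGO1 and AGO3. Of the 9 Argonaute probe sets at or above the floor in both arrays, 7 were higher with miR-130b and 2 were lower. Among all probe sets at or above the floor in both arrays, 53.4% were higher by any amount. The median difference was 0.14 over these 9 and 0.07 over the 10 such probe sets of the other members. Probe sets of 1 gene share their transcripts and are not independent measurements.

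AGO1 had 4 measured probe sets. The brightest stood at 8.92 with miR-130b against 8.77 with EV, a difference of 0.15. The next stood at 7.82 with miR-130b against 8.04 with EV, a difference of -0.22. The 2 dim ones stood at 5.75 and 5.77 with miR-130b against 5.68 and 5.52 with EV, with differences of 0.08 and 0.25. AGO1 thus had 3 probe sets higher and 1 lower, and their mean difference was 0.07. AGO2 was represented by 1 probe set, which stood at 8.63 with miR-130b against 8.54 with EV. Its difference of 0.08 was within that SD of 0.20.

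AGO3 differed the most of the 9 members. Its brightest probe set stood at 6.97 with miR-130b against 6.65 with EV, which is 1.24-fold and a difference of 0.31. Among all measured genes, 5.5% had a higher value than this. A second probe set stood at 5.38 with miR-130b against 5.09 with EV, a difference of 0.29. Another stood at 4.93 with miR-130b against 4.55 with EV, a difference of 0.38, but it reached the floor only through the miR-130b array and so had to be higher there. The dimmest, below the floor in both arrays, differed by -0.09. Of the 6 members with 2 or more probe sets at or above the floor in both arrays, AGO3 was the only one whose such probe sets all differed upwards by 1.2-fold or more. This held for 1.58% of the 5688 genes with 2 or more such probe sets, and the same downwards for 2.34%. The agreement threshold was chosen after the values were seen. Without a replicate, a difference of this size between 2 cultures has no error to be set against.

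AGO4 had 4 probe sets, 2 of them measured. The brighter stood at 6.96 with miR-130b against 7.06 with EV, a difference of -0.10. The other stood at 6.21 with miR-130b against 6.07 with EV, a difference of 0.14. Of the 2 below the floor, 1 differed by 0.18 and the other held exactly the same value, 3.21, in both arrays, as did 4.2% of all non-control probe sets. AGO4 and AGO1, the other genes of the chromosome 1 cluster, thus had probe sets in both directions.

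**Figure D2:**
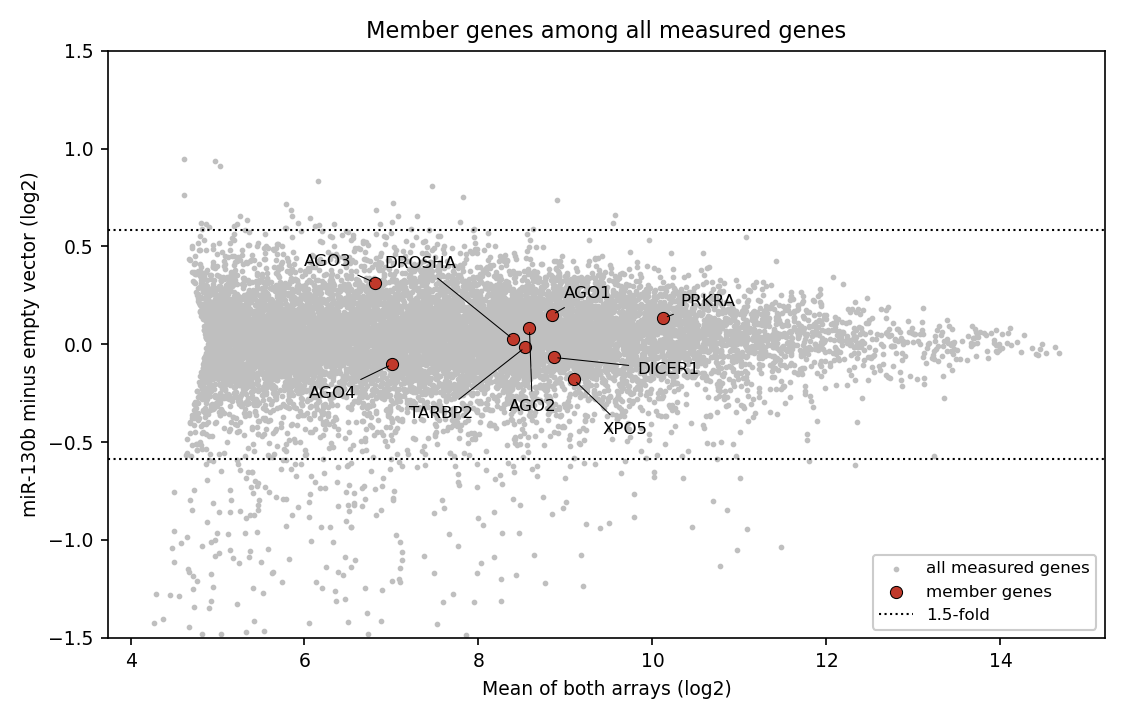
Difference between the miR-130b and the empty vector array (log2, vertical axis) against the mean of both arrays (log2, horizontal axis) for all measured genes in grey and the 9 members in red, each gene by its brightest measured probe set, with 1.5-fold as dotted lines. The members lie between -0.18 and 0.31 inside the grey band, AGO3 uppermost, and 110 genes beyond 1.5 on the vertical axis are not drawn.

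The genes that work with the members were listed in 7 groups by role. Of 103 listed genes, 92 were measured, and 0 of them passed 1.5-fold in either direction by the brightest probe set. The median over the 92 was 0.00, with differences from -0.45 to 0.33. The share of all measured genes past 1.5-fold was 2.98%, as above. At 1.2-fold, 3 of the 92 were higher and 10 were lower with miR-130b, where 9.31% of all measured genes were higher and 8.46% lower. Of the 9 members, AGO3 passed 1.2-fold as higher and none did as lower.

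Among 17 measured partners of the Microprocessor and of primary transcripts, the RNA helicase gene DDX5 differed the most, at 6.61 with miR-130b against 7.06 with EV. This difference of -0.45 rested on 1 probe set. DDX17, the related helicase, differed by 0.14, with its 4 measured probe sets between 0.06 and 0.32. METTL14, a subunit of the RNA adenosine methyltransferase, differed by 0.18, and the editing enzyme gene ADARB1 by 0.15, each with probe sets in both directions. Of the 5 nuclear transport genes, RAN, the GTPase that XPO5 needs to bind its cargo, differed by -0.01. The importin gene IPO8 differed by 0.14 and the RAN exchange factor gene RCC1 by -0.06. XPO1 differed by 0.13 in its brightest probe set, by -0.13 in the next and by 0.14 in the dimmest.

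Genes that tail or degrade precursors had 14 measured members. XRN2, a nuclear 5′ to 3′ exonuclease, stood at 9.05 with miR-130b against 9.41 with EV, a difference of -0.36, and its second probe set differed by -0.52. LIN28B, which binds let-7 precursors and blocks their maturation, stood at 11.18 with miR-130b against 11.52 with EV, a difference of -0.35 in 1 probe set. LIN28A, its paralog, was below the floor in both arrays. The uridylyltransferase gene TUT7 differed by 0.19, and by -0.03 and -0.02 in dimmer probe sets at or above the floor in both arrays. A further TUT7 probe set had -0.20, but it reached the floor only through the EV array and so had to be lower with miR-130b. The list median was 0.02.

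The 10 measured chaperone genes that help load Argonaute had a median of -0.02. HSPA8 and AHSA1, also on this list, had no probe set of their own and so no value. HSP90AA1 and HSP90AB1 had differences of -0.01 and -0.03 in their brightest probe sets, and down to -0.30 and -0.12 in others. The kinase co-chaperone gene CDC37 differed by -0.30 and the HSP70-HSP90 adaptor gene STIP1 by -0.15. HSPA4, an HSP70-family gene, differed by 0.16 in its brightest probe set. Its dimmest probe set stood at 5.04 with miR-130b against 5.69 with EV, a difference of -0.65, so the probe sets of HSPA4 disagreed.

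The GW182 proteins TNRC6A, TNRC6B and TNRC6C bind Argonaute and recruit deadenylases to the target. TNRC6A differed by 0.04 and had 6 measured probe sets. Those at or above the floor in both arrays lay between -0.06 and 0.16. The remaining TNRC6A probe set had 0.17, but it reached the floor only through the miR-130b array and so had to be higher there. TNRC6B stood at 6.82 with miR-130b against 7.14 with EV, a difference of -0.32, and the 5 TNRC6B probe sets at or above the floor in both arrays were lower, from -0.47 to -0.10. A sixth reached the floor only through the EV array, and one below the floor in both arrays differed by 0.02. TNRC6C stood at 6.64 with miR-130b against 6.35 with EV, a difference of 0.30, with another probe set at -0.04. The 3 paralogs thus had differing signs in their brightest probe sets. In the same list of 18 measured genes, the RNA helicase gene UPF1 differed by -0.33.

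Deadenylation and decapping genes, 26 measured, had a median of 0.05. CNOT6L, a deadenylase gene, had a difference of 0.33 in its brightest probe set and of 0.06 in the other measured one. PATL1, a decapping scaffold, differed by -0.34, and its 4 measured probe sets lay between -0.34 and -0.16. EIF4ENIF1, which binds the cap-binding protein eIF4E, differed by 0.29. In the PIWI clade, the germline relatives of Argonaute, PIWIL1 and PIWIL4 were below the floor in both arrays and PIWIL2 differed by -0.20. HENMT1, the methyltransferase of PIWI-bound RNAs, differed by 0.14.

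**Figure D3:**
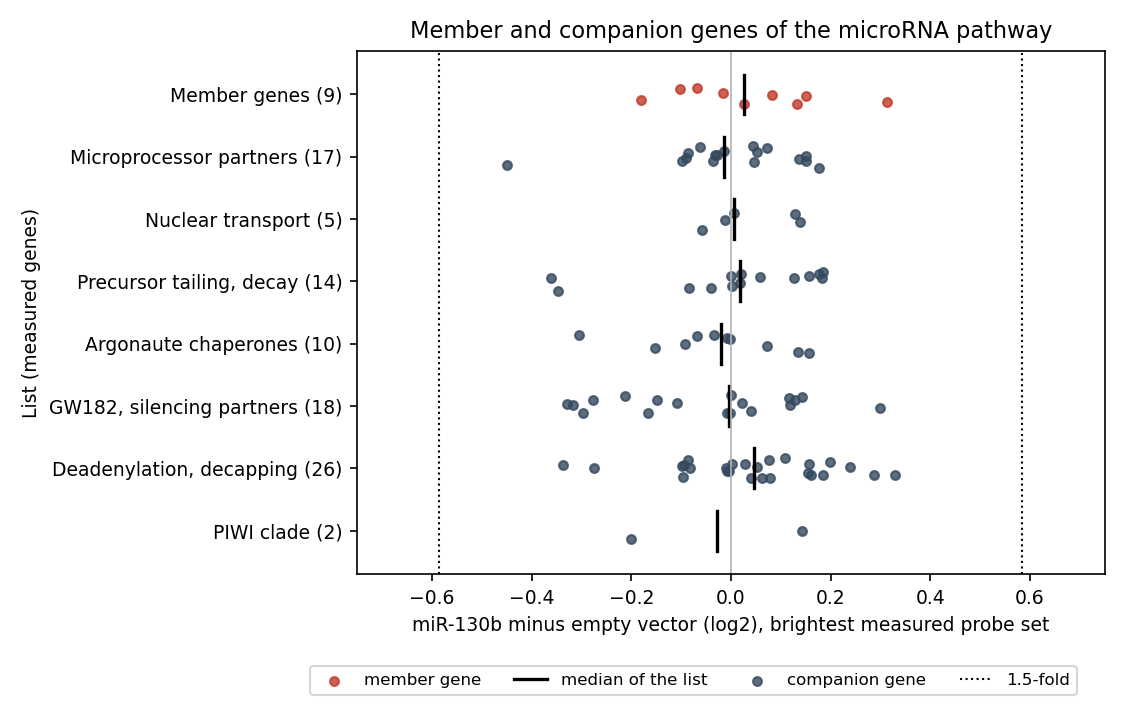
Difference between the miR-130b and the empty vector array (log2, horizontal axis) for the 9 members in red and for 7 lists of companion genes in dark blue, 1 point per gene with a small random vertical offset, with the list median as a black bar and 1.5-fold as dotted lines. Every point lies inside the dotted lines, from -0.45 for DDX5 to 0.33 for CNOT6L.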

How the data were processed

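The table the authors deposited gives log2 values for 54675 probe sets on each array. RMA, which corrects background, normalizes arrays to a shared distribution and summarises probes, is the method that the submitters' processing notes name, with no version and no settings. RMA compresses differences of dim probe sets. Probe sets were named through the platform annotation, in which 41091 of 54613 non-control probe sets had 1 symbol, 1801 several and 11721 none; 41037 of the 41091 matched the RefSeq table (GRCh38.p14) by Entrez identifier. Those with several symbols were credited to no gene.

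The groups, 1 array each, were taken from the sample titles. Differences were taken as miR-130b minus empty vector for every probe set, and counts past 1.5-fold and 1.2-fold are rules of size, not tests; the 1.2-fold rule was chosen after the values were seen. Having 1 array per group limits the precision. Members and gene lists were chosen with earlier results of these data known. Named companion genes are up to 3 per list by size of difference, plus a fixed set that includes the GW182, LIN28, HSP90 and PIWI genes, PROM1 and TP53INP1. Likeness of pattern between genes was not computed over 2 arrays. The code was tested on simulated data. The alternatives tried were a table without a floor, a 75th percentile floor, removal of probe sets suffixed _x_at or _s_at, loess centring (span 0.3) and the mean of measured probe sets. Python 3.11.15, numpy 2.4.6, pandas 2.3.3, statsmodels 0.14.6 and matplotlib 3.10.9 were used.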

Additional observations from a re-analysis of the deposited data

How the results depend on the processing

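No paired analysis was possible because each group holds 1 array and the labels give no replicate numbers. The count of member genes past 1.5-fold was 0 under all 5 alternatives, and that of member probe sets was 0 under all but the mean of probe sets, which cannot give one. The median difference of the members ran from -0.01 with loess centring to 0.08 without the probe sets suffixed _x_at or _s_at. Of 42 member values under the alternatives, 42 moved by less than 0.20, the SD between probe sets of a gene, and 5 changed sign: TARBP2 under 2 alternatives, and DROSHA, DICER1 and AGO4 under 1 each. Many of these values could not move. Under another floor, each member that kept a value kept its brightest probe set. A member with 1 measured probe set has that probe set as its mean. Removing suffixed probe sets changes only a gene whose brightest probe set is suffixed. XPO5 and PRKRA have no value without the suffixed probe sets, and AGO3 has none with the floor at the 75th percentile. Among companion genes, 1 of 71 passed 1.5-fold without the suffixed probe sets, HSPA4 at -0.65, because a dimmer probe set then represents it. CNOT6L differed by 0.06 in that setting, for the same reason.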

Other observations

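Besides AGO3, agreement between probe sets at or above the floor in both arrays, all at least 1.2-fold in 1 direction, was found for 2 of 66 companion genes with 2 or more such probe sets. Both were lower in the miR-130b array, and both were picked out after their values were seen. AJUBA, a LIM-domain adaptor of the family that binds Argonaute, had differences from -0.35 to -0.30 in 3 probe sets. Its brightest stood at 10.13 with miR-130b against 10.43 with EV. XRN2 had differences of -0.36 and -0.52 in 2 probe sets. Over all 5688 genes with 2 or more such probe sets, 2.34% were lower in this way.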
